A study of Mus musculus with 4 samples.

Results

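The dendritic-like cells of subcutaneous adipose tissue (SAT) were a set of 55 cells among 4738 kept SAT cells, in a series of 8986 kept cells. They were chosen by transcript counts. A cell was a member when it held 3 or more unique molecular identifiers (UMIs, 1 per captured transcript) of Cst3 and 10 or more of Cd74. It also had to hold at most 2 UMIs of Lyz2, at most 2 of C1qa, C1qb and C1qc together, at most 1 of Pecam1 and Cdh5 together, and none of Cd79a, Ms4a1, Cd3d, Cd3e, Cd3g or Dcn. The control library gave 28 members and the D-CAN library gave 27.

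The study compared mice given PBS as control with mice given D-CAN, a peptide directed at adipose stromal cells, to learn how the treatment changed the cells of fat and tumor. All mice were of a strain labelled VFB (FVB in the study's own text), ate chow and carried subcutaneous grafts of MycCaP, a cell line from a mouse prostate cancer model, so the controls carried tumors too. Single cells were prepared from the subcutaneous inguinal fat after removal of dead cells and red cells. Whether lymph node tissue was left in that fat was not stated, and whether the members resided in the fat itself was not tested. Each of the 4 groups, SAT and tumor with and without D-CAN, was 1 library of 10x 3' droplet sequencing, and whether a library pooled mice was not stated.

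With 1 library per group there was no replicate error, so no treatment difference was tested. All intervals are 95% intervals that cover counting error only, and cells of a library are not replicates. The control SAT library held 6667064 UMIs in 2851 cells and the D-CAN SAT library 7444729 UMIs in 1922 cells. The median kept cell held 1707 UMIs in control and 2950 in D-CAN. Members were deeper than the median cell, at a median of 3639 UMIs in control (874 to 15741) and 8979 in D-CAN (896 to 22491). The rule counts raw UMIs, and the deeper D-CAN cells reach its limits more easily. The 2 SAT libraries shared 2 cell barcodes, and no SAT member was among them.

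Dendritic cells take up antigen, cut it into peptides and show the peptides to T cells on MHC class II molecules, which are dimers of an alpha and a beta chain that the invariant chain Cd74 escorts to the loading compartment. Conventional type 1 cells (cDC1) present dead-cell antigen to CD8 T cells, type 2 cells (cDC2) prime CD4 T cells, and plasmacytoid cells are known for type I interferon. After taking up antigen, conventional cells mature, switch on the chemokine receptor Ccr7 and the actin-bundling protein Fscn1, and leave tissues such as fat for the draining lymph node, which is why they are called migratory.

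The label was checked on genes outside the rule. H2-Aa, the alpha chain of the class II molecule I-A, was detected in 53 of the 55 cells, and H2-Ab1, its beta chain, in 49. Ptprc, which encodes the leukocyte antigen CD45, was detected in 42. Flt3 (the receptor for the growth factor that dendritic cells depend on) or Zbtb46 (a transcription factor of conventional dendritic cells) was detected in 28 cells, 21 of 27 in D-CAN and 7 of 28 in control. All 28 were among the 46 members with 2000 UMIs or more. Of the 9 macrophage list genes that the rule does not cap, 6 were at 0 in every member (Csf1r, Mrc1, Fcgr1, Mertk, Cd163 and Lyve1), and the most abundant was the lysosomal protein Cd68. Of 11 stromal and mural genes other than Dcn, 7 were at 0. The label was met by class II genes in nearly every cell. Flt3 or Zbtb46 was only detected in 28, and no background share is given for these lineage genes.

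Free transcripts in droplets set a floor for such shares. At 2000 UMIs per cell, H2-Ab1 was found in 80.0% of 20 control members and 80.8% of 26 D-CAN members, against 6.52% and 1.72% of stromal cells, which should lack it. Before thinning the shares were 89.3% and 88.9% of all 28 and 27 members. The median stromal cell held 1014.5 UMIs in control and 5586 in D-CAN. Flt3 was found in 10.0% of the thinned control members and 19.2% of the thinned D-CAN members, against 17.9% and 51.9% of all members before thinning.

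Control cells near the Cd74 limit were shallow. In control, 9 cells held 10 to 12 Cd74 UMIs (median depth 1525 UMIs) and 8 otherwise eligible cells held 7 to 9. In D-CAN the same counts were 1 and 2. For Cst3, 2 control and 3 D-CAN members held 3 or 4 UMIs (median depths 5517 and 4459 UMIs), while 3 and 2 cells with 1 or 2 UMIs stayed out. The Lyz2 limit alone kept out 7 control and 13 D-CAN cells, and 6 of those D-CAN cells met the cDC1 gate given below.

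**Figure D1:**
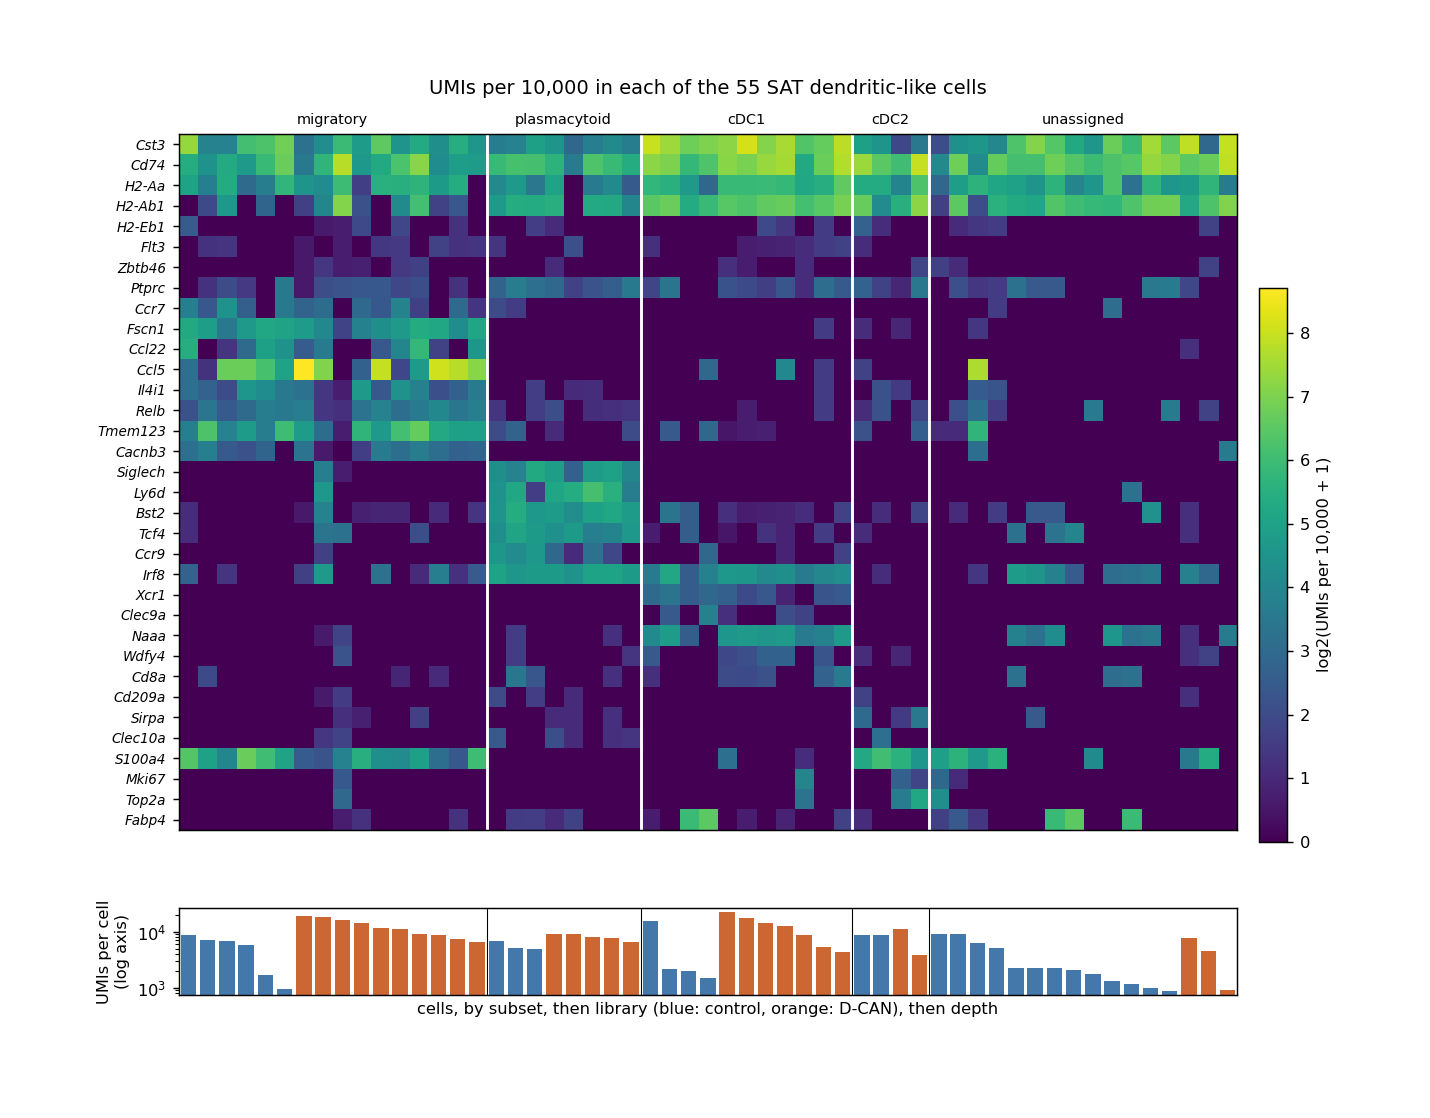
Detection of subset genes in each of the 55 SAT dendritic-like cells, one column per cell ordered by subset, library and depth, with colour for log2 of UMIs per 10000 plus 1 and bars below for the UMIs of each cell on a log axis. Migratory, plasmacytoid and cDC1 genes lie mostly in separate blocks of cells, except that 1 migratory D-CAN cell also holds plasmacytoid genes, and most of the 13 unassigned control cells are shallow.

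Members were split by gates on a few genes, applied in order. Migratory cells held 3 or more UMIs of Ccr7 and Fscn1 together, plasmacytoid cells 2 or more of the surface lectin Siglech, cDC1 cells 1 or more of the receptors Xcr1 and Clec9a, and cDC2 cells 2 or more of Cd209a, Sirpa, Clec10a and Mgl2. Control held 6 migratory, 3 plasmacytoid, 4 cDC1 and 2 cDC2 cells, and D-CAN held 10, 5, 7 and 2. The members that met no gate numbered 13 in control and 3 in D-CAN. One control and 6 D-CAN members met more than 1 gate.

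As a share of kept cells, members made up 0.986% in control (exact interval 0.656 to 1.42%) and 1.42% in D-CAN (0.940 to 2.06%). The difference was 0.438 percentage points with an interval of -0.213 to 1.16, so no difference was detectable at this depth. Among cells with a Ptprc UMI the shares were 1.43% and 1.83%. The kept cells themselves differed in lymphocytes between the libraries. B cells made up 14.85% of kept cells in control and 25.04% in D-CAN, and T cells 20.17% and 34.11%. The part of these lymphocytes in the shares of members was not tested. The migratory share of members was 21.4% in control (8.30 to 41.0%) and 37.0% in D-CAN (19.4 to 57.6%), a difference of 15.6 points (-10.7 to 40.0). The cDC1 share was 14.3% and 25.9%, and the plasmacytoid share 10.7% and 18.5%, with intervals of the difference that also held 0. Only the share that met no gate differed beyond counting error, at 46.4% in control and 11.1% in D-CAN, a difference of -35.3 points (-56.9 to -9.17). The unassigned control cells held a median of 2250 UMIs, against 6205 in the migratory control cells, and the part of depth in that difference was not tested.

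**Figure D2:**
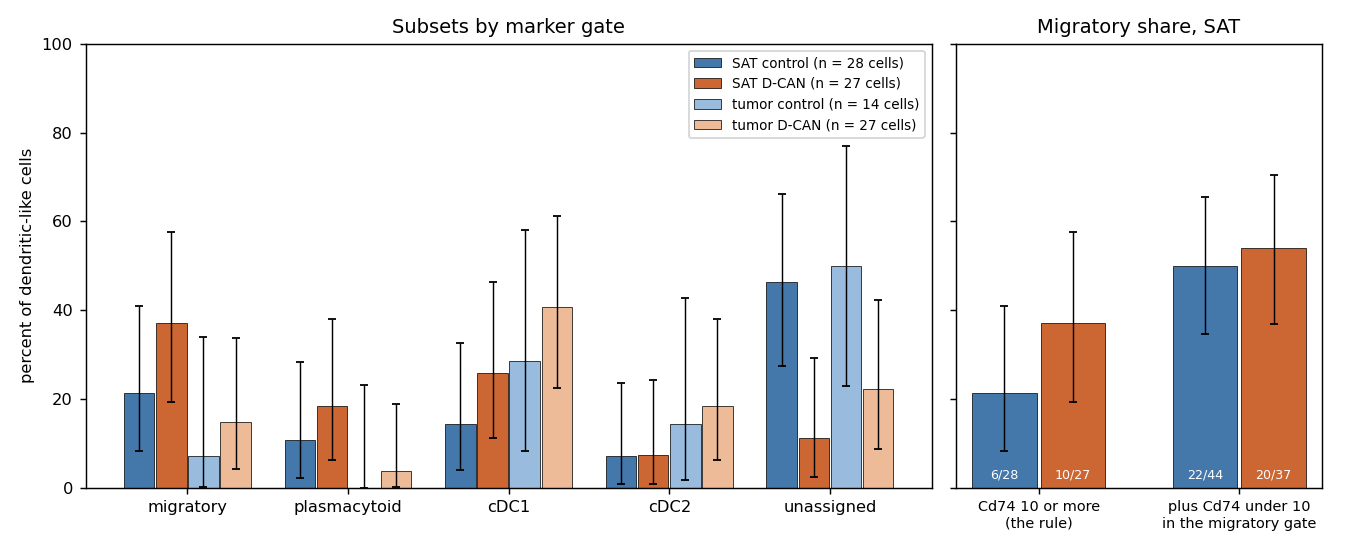
Share of members in each subset, in percent, for SAT control (28 cells), SAT D-CAN (27 cells), tumor control (14 cells) and tumor D-CAN (27 cells). Bars carry exact 95% binomial intervals. The right panel gives the SAT migratory share under the rule and with migratory-gated cells of Cd74 under 10 added, which raises both shares by construction. In SAT the unassigned share is 46.4% in control and 11.1% in D-CAN, and the intervals of all other SAT subsets overlap widely.

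The migratory cells carried a program well beyond their 2 gate genes. Of the 13 migratory list genes left after the gate genes Ccr7 and Fscn1, 11 could be compared, and 10 were at least 2-fold higher in migratory cells than in the other members in both libraries. The background for such a rise was 8.22% of 2616 genes. Genes were compared only at 20 UMIs or more over both libraries, which Ccl17 (13) and Cd274 (12) did not reach. Ccl22, Socs2, Cacnb3 and Il4i1 were among those that reached it only through the migratory cells, so their rise was in part set by this limit. The other members held 0, 8 and 5 UMIs of Ccl22, Socs2 and Cacnb3 in control and 1, 0 and 1 in D-CAN. Tmem123 and Traf1 met the limit without migratory cells, at 44 and 23 UMIs in the other control members. The median log2 ratio of the 11 genes was 2.85 in control and 3.65 in D-CAN, against -0.21 and -0.29 over all genes. Setting genes at 0 to a floor of 3 counts, with no UMI added to any gene in all values at the floor, left 10 of 11 and medians of 2.86 and 3.71.

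Ccl22 (chr8:94745590-94751699, plus strand, build GRCm38), a chemokine that draws regulatory and other CCR4-bearing T cells, stood at 49 UMIs in the 6 migratory control cells and at 0 in the other 22 members, at least 53.2-fold higher per UMI sequenced with 3 counts in place of 0. In D-CAN the counts were 119 UMIs in 10 cells and 1 UMI in 17. By cell, Ccl22 ranged from 0 to 37 UMIs in control (median 3) and from 0 to 51 in D-CAN (median 7). Expression was thus uneven even among cells of the same gate, with 1 control cell holding most of the control UMIs.

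Tmem123, which encodes a cell surface mucin-like protein, was detected in all 16 migratory cells, at 3178 CPM (UMIs scaled to a total of 1000000) in control and 3339 CPM in D-CAN. In the other members it stood at 438 and 51.9 CPM. Il4i1, a secreted amino acid oxidase that limits T cell growth, was also in all 16, at 973 and 908 CPM against 89.5 and 32.5 CPM. Relb, an NF-kappa B subunit of mature dendritic cells, reached 649 and 851 CPM against 179 and 64.9 CPM. Among migratory cells, the 2 libraries lay close to each other for Tmem123 and Il4i1.

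The leading genes outside the lists were chosen for the highest ratios in migratory cells of both libraries. Their rise there was thus set by that choice. Apol7c, an apolipoprotein L family member, was seen only there, with 17 UMIs in 1 control cell and 65 UMIs in 5 D-CAN cells, and none in the other members. H2-M2, a nonclassical MHC class I gene, reached 2821 CPM in control and 1824 CPM in D-CAN, against 189 and 0 CPM. All 19 outside UMIs of H2-M2 were in 1 control cell. Eno3, the muscle form of the glycolytic enzyme enolase, stood at 1265 and 405 CPM against 9.95 and 0 CPM. Nudt17, Synpo2 and Ankrd33b, also outside the lists, were among the leading genes too.

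**Figure D3:**
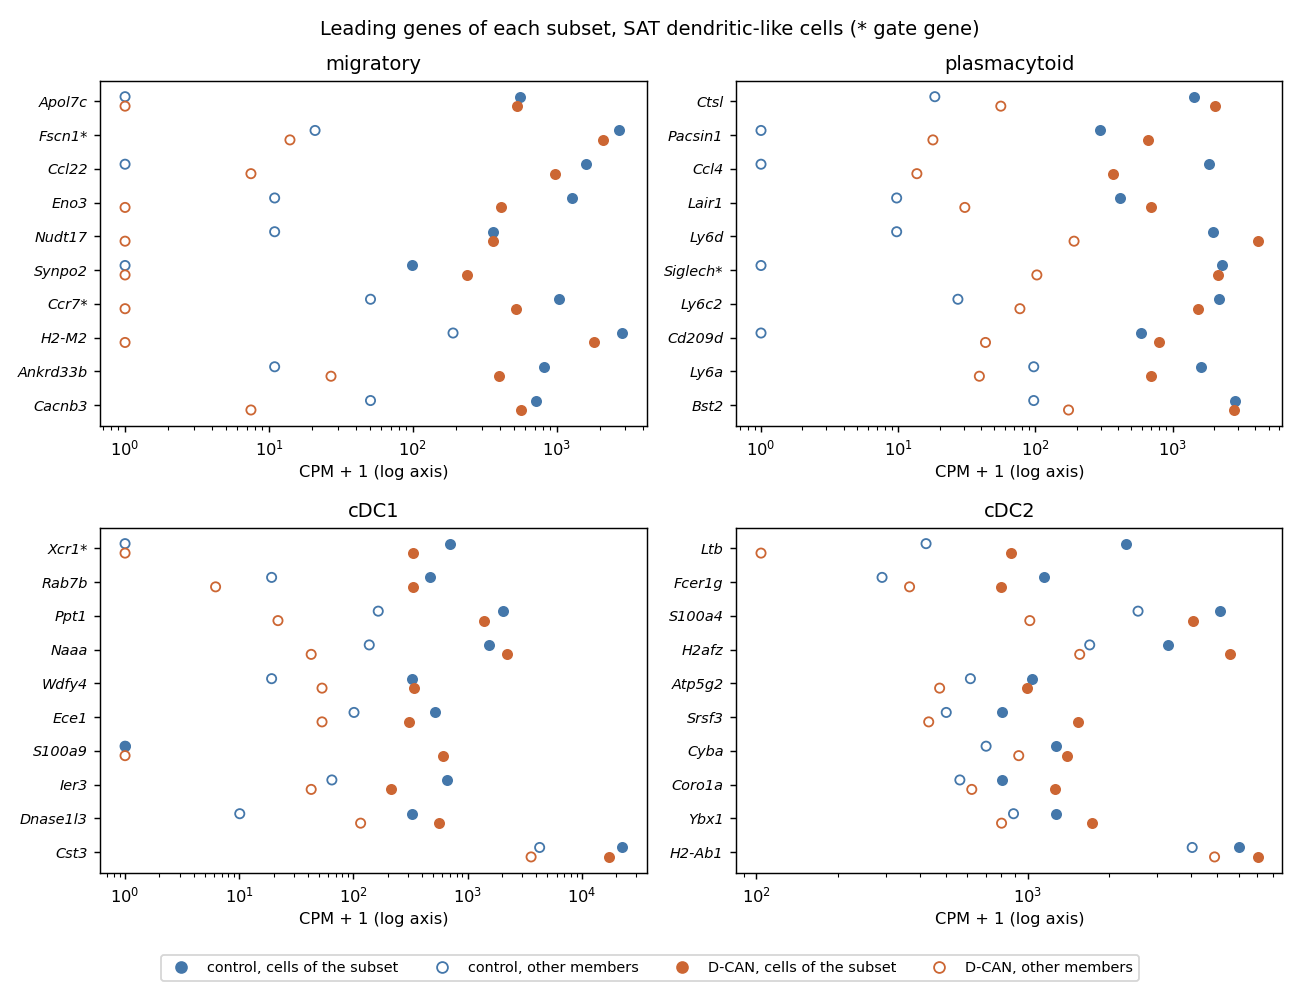
CPM of the 10 leading genes of each gated subset, by library, in cells of the subset (filled) and in the other members (open), on a log axis of CPM plus 1 with gate genes starred. Apart from S100a9, at 0 in control, every gene sits higher inside its subset in both libraries, as the choice of genes requires.

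Lists of presentation, costimulation and chemokine genes moved both ways in migratory cells. Of 4 costimulation and checkpoint genes that could be compared, 2 were at least 2-fold higher in both libraries, Cd40 and Cd83, where the background was 8.22% of genes. Cd40 reached the limit of 20 UMIs for a comparison only through the migratory cells, so its rise was in part set by this limit. Cd86, also of that list, stood at 32.4 and 48.6 CPM against 139 and 97.4 CPM, and it was 2-fold lower in both libraries only with no UMI added. Of 12 MHC class I presentation genes, 2 were higher (Nlrc5 and B2m) and 2 lower (the chaperones Calr and Pdia3), beside a background of 8.22% for a rise and 12.3% for a fall. Calr stood at 162 CPM in control and 195 CPM in D-CAN against 488 and 662 CPM in the other members. Cd40, a receptor that takes up help from CD4 T cells, was at 195 CPM in control and 332 CPM in D-CAN against 19.9 and 51.9 CPM in the other members. Cd83, a maturation protein that stabilizes MHC class II at the surface, stood at 454 and 292 CPM against 219 and 84.4 CPM. Of 9 chemokine and cytokine genes 4 were higher and 4 lower, or 4 and 2 at the floor. Cxcl16, a membrane-bound chemokine and one of the higher, stood at 486 and 624 CPM against 89.5 and 117 CPM. Cxcl9, one of the lower, was at 0 in migratory cells of both libraries. Nlrc5, the activator of MHC class I genes, and B2m, the class I light chain, moved the same way, with B2m at 7555 and 7399 CPM against 2975 and 2123 CPM. These 5 genes were at least 2-fold higher in migratory cells of both libraries.

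Of 5 interferon-stimulated genes that could be compared, 4 were at least 2-fold lower in migratory cells of both libraries, where the background for a fall was 12.3% of genes. The list median was -4.02 in control and -1.65 in D-CAN, or -2.47 and -1.67 with genes at 0 set to the floor. The other members include the plasmacytoid cells, which are rich in some of these genes, so the count depends on them in part. For Bst2, plasmacytoid cells held 48 of the 58 control UMIs and 113 of the 123 D-CAN UMIs outside migratory cells. The remaining 12 D-CAN members held 10 Bst2 UMIs against 31 in the migratory cells, of which 25 were in the 1 migratory cell with plasmacytoid genes. Ly6e, a surface protein induced by interferon, stood at 0 UMIs in control migratory cells against 98 UMIs in the other control members, at least 10.0-fold lower. In D-CAN it stood at 41 against 141 UMIs, and 2 of the 10 migratory cells held 20 UMIs each. Outside the plasmacytoid cells too it was seen in the other members, with 74 UMIs in D-CAN cDC1 cells and 29 in control cDC1 cells. Irf8, a transcription factor of cDC1 and plasmacytoid cells, was at 195 and 624 CPM against 945 and 1896 CPM.

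The Cd74 limit of the rule cut through the migratory cells. Of cells that failed on Cd74 alone, 145 in control and 54 in D-CAN, 16 and 10 met the migratory gate, so that 26 such cells stood outside against 16 inside. Their depth was a median of 1427 UMIs in control and 6642 in D-CAN. Their summed level of the 13 migratory list genes that the gate did not use was 11185 CPM in control and 10620 CPM in D-CAN. Migratory members were at 11576 and 10179 CPM, the Cd74-low cells with no gate at 869 and 430 CPM, and the non-migratory members at 1443 and 597 CPM. On this list the Cd74-low gated cells lay close to the migratory members and over 10 times above the ungated cells.

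Ccl22 was at 1445 CPM in control and 933 CPM in D-CAN in the Cd74-low gated cells. Il4i1 was at 1331 and 992 CPM there, and Relb at 633 and 918 CPM. Ungated Cd74-low cells held at most 115 CPM of any of these 3 genes. A median of 6 of the 13 list genes was detected per Cd74-low gated cell in control and 10.5 in D-CAN, against 10.5 and 11 in migratory members. Fewer list genes were thus seen per cell in the shallow control cells.

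With those 26 cells counted in, a choice made after seeing the data, control had 44 such cells among 2841 (1.55%) and D-CAN had 37 among 1897 (1.95%). The difference was 0.402 points (-0.376 to 1.24). The migratory share then became 50% in control (34.6 to 65.4%) and 54.1% in D-CAN (36.9 to 70.5%), a difference of 4.05 points (-19.0 to 26.6). Only cells of the migratory gate were added, to both the count and its total, so both shares rose by construction and the 2 sets of shares are not compared.

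Cd74 itself was lower in migratory members than in the others, at 3599 against 9203 CPM in control and 6646 against 10992 CPM in D-CAN, though the rule acts on this gene. The 2 chains of I-A, which the rule did not use, did not fall alike. H2-Ab1 was at 616 CPM in migratory control cells against 5432 CPM in the other control members, and at 2796 against 6779 CPM in D-CAN. H2-Aa was at 2432 against 3273 CPM and at 3080 against 4097 CPM. In the 7 migratory D-CAN cells that met no other gate, Cd74 was at 3014, H2-Ab1 at 416 and H2-Aa at 2534 CPM. H2-Ab1 was thus past 2-fold lower in both libraries and H2-Aa in neither.

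Counted together, H2-Aa made up 79.8% of the UMIs of both chains in the 6 migratory control cells (exact interval 70.2 to 87.4%), with 75 UMIs against 19. In the other 22 control members it made up 37.6% (34.4 to 40.9%), with 329 against 546. All 6 migratory control cells held more H2-Aa than H2-Ab1, and 18 of the 22 others held more H2-Ab1. In 1 of the 6 cells lay 16 of the 19 H2-Ab1 UMIs. The intervals of migratory and other members did not overlap, but they count UMIs as independent and leave out the spread between cells.

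In D-CAN the 10 migratory members held 380 H2-Aa and 345 H2-Ab1 UMIs, or 52.4% H2-Aa (48.7 to 56.1%). One cell with Mki67, Cd209a and Clec10a UMIs held 220 of those H2-Ab1 UMIs. The 7 migratory D-CAN cells that met no other gate stood at 85.9% (80.8 to 90.1%), with 201 against 33. The other 17 D-CAN members stood at 37.7% (35.3 to 40.0%). The D-CAN value thus depended on 3 cells that met several gates.

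The Cd74-low migratory-gated cells, which were outside the set, also held more H2-Aa in sum. H2-Aa made up 81.8% of both chains in control (70.4 to 90.2%) with 54 against 12 UMIs, and 87.3% in D-CAN (76.5 to 94.4%) with 55 against 8. By cell, 7 of 16 in control and 5 of 10 in D-CAN held more H2-Aa, 2 and 3 held more H2-Ab1, and the rest held equal numbers. In control, 2 cells held 23 and 17 of the 54 H2-Aa UMIs, and in D-CAN 1 cell held 28 of the 55. B cells, which carry class II too, held less H2-Aa than H2-Ab1, with 3079 against 3756 UMIs in control and 4187 against 4949 in D-CAN. In the tumor the single migratory control cell held 18 H2-Aa and 21 H2-Ab1 UMIs, and the 4 migratory D-CAN cells held 64 and 98. Per 100 H2-Ab1 UMIs that was 85.7 and 65.3 H2-Aa UMIs, against 36.2 and 47.4 in the other tumor members. In the tumor H2-Aa was thus below H2-Ab1 in both kinds of members and higher relative to it in the few migratory cells.

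**Figure D4:**
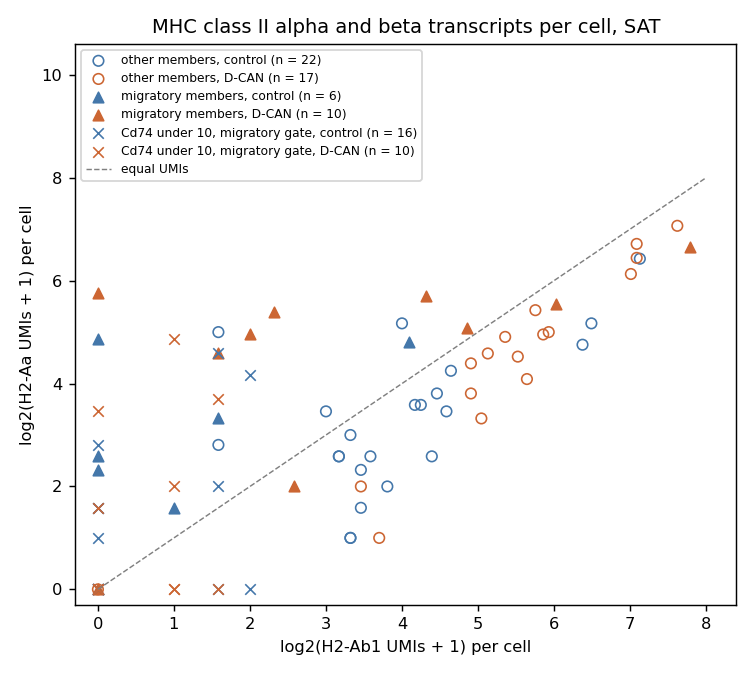
H2-Aa UMIs against H2-Ab1 UMIs in each SAT dendritic-like cell and each Cd74-low migratory-gated cell, on log2 axes with 1 UMI added and with colour for the library. The 6 migratory control members lie above the dashed line of equal UMIs, as do 6 of the 10 in D-CAN, and most other members lie below it.

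Both genes sit in the class II region of chromosome 17 on build GRCm38, H2-Ab1 at chr17:34257689-34269419 on the plus strand and H2-Aa at chr17:34282744-34287823 on the minus strand. Class II promoters share a Y box, the site of the factor NF-Y, and the promoters that held its letters are shown because the 2 chains moved unequally. Of 12 windows for 10 of the 13 class II list genes, 3 held CTGATTGG on either strand (25%), against 4.10% of all 32851 RefSeq promoter windows of 300 bases. A match is a description of letters, and H2-Ab1 had no entry in the set of windows used. The 150 bases before the RefSeq start of each gene follow, 5′ to 3′ on the strand of the gene, with the Y box in capitals.
H2-Aa (chr17:34287824-34287973, minus): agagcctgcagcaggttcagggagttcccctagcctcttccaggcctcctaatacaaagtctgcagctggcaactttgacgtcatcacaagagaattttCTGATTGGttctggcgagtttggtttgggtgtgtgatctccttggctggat
H2-Eb1 (chr17:34305717-34305866, plus): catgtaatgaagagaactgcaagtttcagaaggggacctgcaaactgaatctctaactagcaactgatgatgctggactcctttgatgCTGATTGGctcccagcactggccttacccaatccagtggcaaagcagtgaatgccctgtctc
H2-Oa (chr17:34092229-34092378, plus): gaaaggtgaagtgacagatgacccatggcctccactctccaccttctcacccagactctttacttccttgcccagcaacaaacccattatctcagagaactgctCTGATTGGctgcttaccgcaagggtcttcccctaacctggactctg
The box ended 43 bases before the start in H2-Aa, 54 in H2-Eb1 and 38 in H2-Oa.

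None of the 17 windows for genes of the migratory list held the Y box letters, and Ccr7, Relb and Socs2 had no entry in that set.

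H2-Eb1 encodes the beta chain of the second class II molecule, I-E, of which strains of the q haplotype such as FVB make no functional form. It was low in the members, with 14 UMIs in control and 19 in D-CAN. Per 100 H2-Ab1 UMIs that was 2.48 and 1.37, against 5.96 and 4.49 in B cells and 1.82 and 2.18 in macrophages. Ciita, the master activator of class II genes, stood at 32.4 and 16.2 CPM in migratory cells against 169 and 156 CPM in the other members. H2-DMa, part of the peptide editor, stood at 97.3 and 211 CPM against 418 and 695 CPM. Of 12 class II list genes, 6 were at least 2-fold lower in migratory cells of both libraries, beside 12.3% of all genes. With genes at 0 set to the floor, 3 of 12 were lower, beside 7.87% of all genes.

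The 8 plasmacytoid cells carried the genes of their lineage. All 14 plasmacytoid list genes that the gate did not use and that could be compared were at least 2-fold higher there in both libraries, where the background was 10.9% of genes for a rise and 9.17% for a fall. Genes were compared only at 20 UMIs or more over both libraries. Some, such as Klk1 and Upb1, reached this limit only through the plasmacytoid cells, with 0 UMIs outside them in either library. For such genes a rise was set by the limit, which the background genes also had to meet. The median log2 ratio of the 14 genes was 6.10 in control and 3.74 in D-CAN, or 4.80 and 3.63 with genes at 0 set to the floor, against 0.09 and 0.17 over all genes. The lower D-CAN value stood beside 1 migratory D-CAN cell that also held 23 Siglech and 45 Ly6d UMIs.

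Ly6d, a surface antigen of lymphoid progenitors and plasmacytoid cells, was at 1950 CPM in the 3 control cells and 4157 CPM in the 5 D-CAN cells. By cell it read 14, 18 and 1 UMIs in control and 32, 37, 57, 35 and 8 in D-CAN. Bst2, an antiviral surface protein, stood at 2836 and 2780 CPM against 96.1 and 173 CPM in the other members. Tcf4, the factor that fixes the plasmacytoid lineage, stood at 2541 and 1919 CPM against 96.1 and 169 CPM. Id2, a factor that opposes it, was at 0 UMIs in the control cells and 1 UMI in the D-CAN cells, against 111 and 281 UMIs in the other members. Tcf4 was thus high where Id2 was at or near 0.

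Spib and Bcl11a, lineage factors as well, and Irf8 were also higher in plasmacytoid cells of both libraries. Ctsl, a lysosomal protease, led the genes outside the lists at 1418 and 2017 CPM against 17.5 and 54.9 CPM. Ccl4, a chemokine, was in all 3 control cells at 1832 CPM and in 3 of 5 D-CAN cells at 369 CPM. Ccr9, a gut-homing chemokine receptor, stood at 2186 CPM in control and 394 CPM in D-CAN. Of 5 interferon-stimulated genes 3 were at least 2-fold higher here in both libraries, beside 10.9% of all genes, and 2 of these, Bst2 and Irf7, are also plasmacytoid list genes counted above. Ccl5 was at 0 in all 8 cells.

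Part of the cDC1 list marked the 11 cDC1 cells. Of 8 cDC1 list genes left after the gate genes, 4 were at least 2-fold higher there in both libraries, where the background was 4.13% of genes for a rise and 11.4% for a fall. Of these, Rab7b and Wdfy4 reached the limit of 20 UMIs for a comparison only through the cDC1 cells. Outside them they held 2 and 2 UMIs in control and 1 and 10 in D-CAN, so their rise was in part set by the limit. Naaa, a lysosomal amidase, stood at 1537 CPM in control and 2192 CPM in D-CAN against 137 and 41.6 CPM. Rab7b, a late endosome GTPase, stood at 466 and 328 CPM against 18.2 and 5.21 CPM. Ppt1, a lysosomal thioesterase, stood at 2050 and 1383 CPM against 164 and 20.8 CPM. Wdfy4, which cDC1 cells need to cross-present, stood at 326 and 340 CPM against 18.2 and 52.1 CPM. The control levels rested on 1 cell of 15741 UMIs, which held all 7 Wdfy4 UMIs, 41 of 44 for Ppt1, 26 of 33 for Naaa and 8 of 10 for Rab7b. Of the other 3 control cells, 2 held 1 Xcr1 UMI each and 12 and 14 Fabp4 UMIs. In D-CAN, Naaa was spread over all 7 cells at 7 to 52 UMIs.

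The class II balance of the cDC1 cells was opposite to that of the migratory cells. H2-Ab1 stood at 8338 and 8816 CPM there, above H2-Aa at 4705 and 5710 CPM, and in each of the 11 cells H2-Ab1 had more UMIs, while the other members stood at 3513 and 3316 CPM of H2-Ab1 and at 2758 and 2728 CPM of H2-Aa. Cxcl9, which draws activated CXCR3-bearing T cells, was found in 2 of 4 control cDC1 cells and in 4 of 7 in D-CAN. Outside them it was in 1 member in control and none in D-CAN, but that control member held 27 of the 51 control UMIs. Relb was low in the cDC1 cells, at 0 and 23.4 CPM. Of 11 migratory list genes, 10 were at least 2-fold lower in cDC1 cells of both libraries, and 7 with genes at 0 set to the floor, beside 11.4% and 4.51% of all genes. The other members include the migratory cells, which the order of gates takes out of the cDC1 cells. This fall was therefore partly set by the gates and says little about the cDC1 cells. Cd8a, which mouse cDC1 cells of lymphoid organs carry, was found in 5 of 7 D-CAN cDC1 cells at 3 to 7 UMIs and in 1 of 4 control cells at 2 UMIs. It was not limited to them, since 2 of 3 plasmacytoid control cells held 7 UMIs together. Trac, the T cell receptor alpha chain, was at 0 in every member.

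After the earlier gates were applied, the cDC2 gate held only 2 cells per library, and its label was weakly met. Before that, 3 control and 8 D-CAN members met this gate, and the rest of them were assigned to earlier gates. The D-CAN cells held 3 and 4 Cst3 UMIs, at or next to the lowest number the rule allows, and both held Mki67, a gene of dividing cells, at 6 and 1 UMIs. Their gate rested on 2 and 4 Sirpa UMIs, and Cd209a, Clec10a and Mgl2 were at 0. In control, 1 cell held 2 Cd209a and 6 Sirpa UMIs and the other 7 Clec10a UMIs. Ltb, a lymphotoxin chain, led these cells at 2305 and 865 CPM against 421 and 103 CPM, followed by Fcer1g, an adaptor of Fc receptors. Of 5 cDC2 list genes outside the gate 1 was higher in both libraries and 1 lower, with medians of 0.79 in control and -0.73 in D-CAN. With genes at 0 set to the floor, 1 was higher and 0 lower, beside 4.89% and 1.72% of all genes. The medians were then 0.78 over 4 genes in control and 1.56 over 2 genes in D-CAN. The 1 higher was S100a4, a calcium-binding protein of motile cells, at 5129 and 4057 CPM against 2553 and 1018 CPM, and it was at 5739 CPM in migratory control cells. Of all genes, 7.49% were at least 2-fold higher and 6.38% lower in both libraries, and their mitochondrial share was a median of 11.9% in D-CAN and 5.2% in control. So few cells allow no further description.

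The unassigned members were mostly shallow in control, where 9 of the 13 held 2285 UMIs or fewer and 10 to 25 Cd74 UMIs each. One unassigned control cell of 6320 UMIs held 126 Ccl5 UMIs, 32 Tmem123 UMIs and 31 H2-Aa against 2 H2-Ab1 UMIs, with 1 Fscn1 UMI, and grouped with the migratory cells. Mki67 was found in 6 of the 55 members.

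Clustering of the 55 cells without the gates, on the most variable genes of these same cells and so with no test, divided them into 4 groups. The first held 18 cells, 9 cDC1, 2 cDC2 and 7 unassigned, led by Cxcl9, Xcr1 and Wdfy4. The second held 15 cells, 14 migratory and 1 unassigned, led by Eno3, Fxyd2, Apol7c and H2-M2. The third held 13 cells, 8 of them plasmacytoid, led by Ly6d and Siglech. The fourth held 9 cells led by the cell cycle genes Top2a, Birc5, Stmn1 and Mki67. Each group drew cells from both libraries, with 10 and 8, 7 and 8, 6 and 7, and 5 and 4 cells from control and D-CAN.

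Between the treatments, levels were compared on UMIs summed over the members of each library. Of 2616 genes with 20 UMIs or more, 142 were past 2-fold higher in D-CAN (5.43%) and 145 past 2-fold lower (5.54%), with a median log2 ratio of -0.04. With the mean over migratory, cDC1 and cDC2 cells in place of the sum, which leaves out plasmacytoid and unassigned cells, the numbers were 433 and 247. Thinned to 2000 UMIs per cell they were 22 and 23. The mean was formed for the same 2616 genes. The number of genes compared in the thinned cells is not given, so the thinned counts cannot be read as shares. Of the same 2616 genes, with no UMI added and counts of 0 set to 3, 178 were higher and 145 lower. Each ratio below compares 2 libraries, which also differed in the Cell Ranger version in the file headers (3.0.2 for SAT D-CAN, 3.1.0 for SAT control), so treatment, library and version cannot be told apart. The mix of subsets differed between the libraries, and within-subset values are given for some of the genes.

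Ccl5 (chr11:83525778-83530518, minus strand), a chemokine, was the most abundant of the 12 named genes that stood higher in D-CAN, with 1884 UMIs against 286, a log2 ratio of 1.64 (1.46 to 1.83). Migratory cells held 1863 of the 1884 D-CAN UMIs but 157 of the 286 in control, where 1 unassigned cell held 126. By cell the 6 migratory control cells held 1 to 72 UMIs (median 9.5) and the 10 D-CAN cells 0 to 795 (median 126.5). The groups overlapped, with 4 D-CAN cells at 24 UMIs or fewer. The migratory cells stood at 15099 CPM in D-CAN and 5091 CPM in control. Without the D-CAN cell of 795 UMIs the log2 ratio over the members was 0.95.

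In the Cd74-low migratory-gated cells Ccl5 stood at 44791 CPM in D-CAN and 16916 CPM in control, a log2 ratio of 1.40 that rested on 2 D-CAN cells with 1348 and 1027 of the 3024 UMIs. Without these 2 cells the ratio turned to -0.27, and without the 2 highest cells of each library it was 0.15. By cell they held 1 to 1348 UMIs in D-CAN (median 53.5) and 4 to 304 in control (median 19), beside median depths of 6642 and 1427 UMIs. T cells, which also make Ccl5, stood at 697 CPM in D-CAN and 964 CPM in control, so in T cells Ccl5 was not higher in D-CAN.

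Serpinb1a, an inhibitor of neutrophil serine proteases, was at 125 UMIs in 7 D-CAN members and at 0 in control, at least 19.7-fold higher when 3 counts stand for 0. In the Cd74-low migratory-gated cells it was present in both libraries, with 33 UMIs in D-CAN and 45 in control. The absence in control members was therefore not an absence in the control library. Epsti1, an interferon-responsive gene, stood at 856 UMIs in 20 D-CAN members against 81 in 13 control members, a log2 ratio of 2.31, which became 0.91 with the Cd74-low migratory cells counted. Cd40 stood at 49 against 8 UMIs with a ratio of 1.46, and at 0.38 with those cells counted.

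S100a9, a neutrophil protein, had 52 UMIs, all in 1 D-CAN cDC1 cell. Dnase1l3, an extracellular DNase of myeloid cells, stood at 70 against 8 UMIs, with 48 of the 70 in cDC1 cells. Zeb2, a transcription factor, stood at 56 against 7 UMIs, of which migratory cells held 34 and 3 and plasmacytoid cells 13 and 2. Txndc17, a thioredoxin-like protein, stood at 278 against 42 UMIs, and migratory cells held 258 of the 278 and 17 of the 42. Migratory cells also held 838 of the 856 D-CAN Epsti1 UMIs, 76 of the 83 for Pla2g16 and 123 of the 125 for Serpinb1a. Ly6d stood at 214 against 34 UMIs, in 6 and 4 cells. Pla2g16, Sh3bp1 and Dbnl completed the 12 highest. In cells thinned to 2000 UMIs, Pla2g16 and Txndc17 turned to lower in D-CAN.

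Fabp4, a fatty acid binding protein of adipocytes and capillary endothelium, had the lowest ratio among genes with 50 UMIs or more, at 10 UMIs against 76, a log2 ratio of -3.94. In control, 5 shallow members held 12, 14, 13, 19 and 7 of those UMIs, at 2006, 1525, 2250, 2069 and 1157 UMIs in all. Endothelial cells held 31761 CPM in D-CAN and 30303 CPM in control. B cells, which should lack it, held 77.3 and 136 CPM, and stromal cells 164 and 564 CPM. Of the 10 endothelial list genes, of which the rule caps Pecam1 and Cdh5, 3 were at 0 in the members, and the summed list stood at 50.5 CPM in D-CAN and 678 CPM in control with Fabp4 the most abundant. The part of endothelial transcripts in this ratio was not tested.

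Other genes stood lower in D-CAN by less. Ltb was at 40 against 88 UMIs with a log2 ratio of -2.21, and S100a4 at 328 against 380 UMIs with a ratio of -1.29. Gtpbp4, a GTPase of ribosome assembly, was at 27 against 56 UMIs, with 62.5% of the control UMIs in 1 cell. Cxcl9 was at 25 against 51 UMIs in 4 and 3 cells. Ccr9, Ifitm3, Prdx6, Ifi27l2a, Fxyd2, Dap and Fabp5 completed the 12 lowest. Thinned, Ltb and Fxyd2 turned to higher in D-CAN, and Ccr9 and Ifitm3 did so in the mean over migratory, cDC1 and cDC2 cells.

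**Figure D5:**
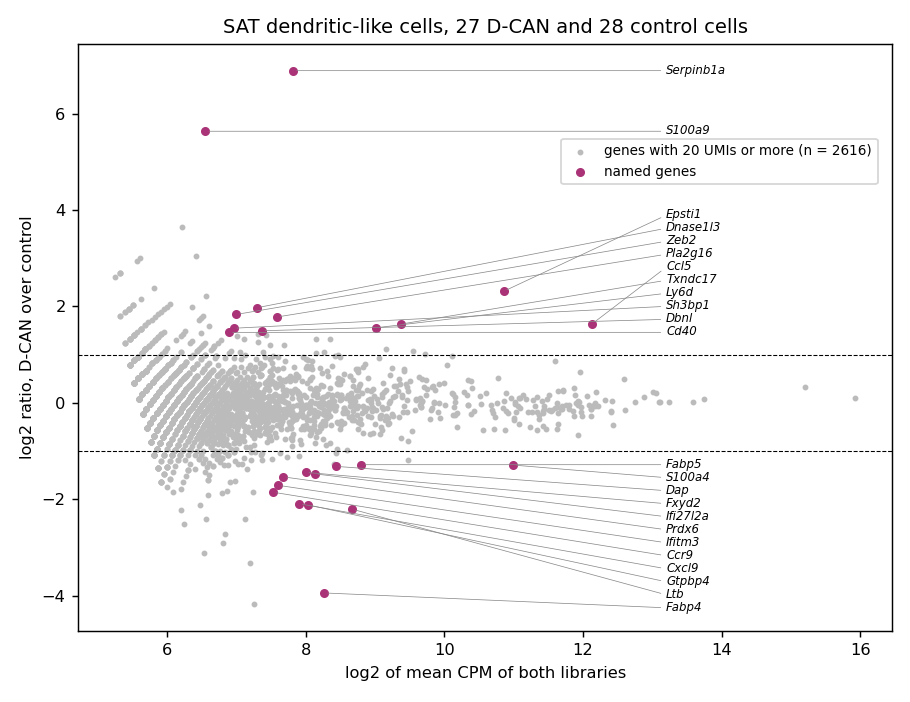
log2 ratio of D-CAN over control against log2 of the mean CPM of both libraries for 2616 genes, computed on UMIs summed over 27 D-CAN and 28 control members with 0.5 UMI added. The 24 named genes are marked, dashed lines show 2-fold, and the value of Serpinb1a and S100a9, at 0 in control, depends on the UMI added.

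By lists, the share of genes past 2-fold between treatments varied, beside a background of 5.43% higher and 5.54% lower. All 12 MHC class I presentation genes that could be compared were positive, with a median log2 ratio of 0.35 against -0.04 over all genes, and none was past 2-fold. The migratory list had none of 13 past 2-fold and a median of 0.28, with more migratory cells in D-CAN, and the cDC1 list had none of 9. Of 5 interferon-stimulated genes 3 were past 2-fold lower, with a median of -1.15. Of 7 cDC2 list genes 3 were past 2-fold lower, with a median of -0.72 and S100a4 the most abundant. Of 15 plasmacytoid list genes 2 were higher and 3 lower, and of 13 transcription factors of dendritic lineages 3 were higher and 2 lower. Of 9 chemokine and cytokine genes 2 were higher and 3 lower. Of 15 immediate early and heat shock genes, which respond to cell handling among other things, 3 were higher with a median of 0.48, and of 12 cycling genes 3 were higher and 1 lower. Of 12 class II genes 1 was higher and 1 lower. The lists share some genes, and several of their genes rest on few cells.

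Genes of other cell types were partly set by the rule, which fixes Cd79a, Ms4a1, Cd3d, Cd3e and Cd3g at 0. The B cell and plasma cell list summed to 379 CPM in D-CAN and 586 CPM in control, with Ighm the most abundant. The T cell list summed to 389 and 640 CPM, with Il7r the most abundant, and Trbc1 was found in 5 members. Neutrophil and mast cell genes summed to 270 and 0 CPM, with S100a9 the most abundant. Their part in the treatment ratios was not tested.

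The same rule found 14 of 2761 kept cells in the control tumor library (0.507%) and 27 of 1487 in the D-CAN tumor library (1.82%), a difference of 1.31 points (0.604 to 2.16). The tumor members held a median of 1892 and 2730 UMIs. Of the tumor members, 7 of 14 in control and 6 of 27 in D-CAN met no gate. The cDC1 gate held 4 cells (28.6%, 8.39 to 58.1%) and 11 cells (40.7%, 22.4 to 61.2%), the migratory gate 1 and 4 cells, the plasmacytoid gate 0 and 1 and the cDC2 gate 2 and 5. The intervals of the cDC1 and migratory shares overlapped those of SAT. The count of 0 plasmacytoid cells in 14 allows a share of up to 21.4%, taken as 3 counts of the total. Of 728 genes in the tumor contrast, 63 were past 2-fold higher (8.65%) and 37 lower (5.08%). In SAT the difference in the share of members was 0.438 points, and the difference between the tissues was not tested.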

How the data were processed

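The deposited files were gene by cell matrices of raw UMI counts, which the authors made with Cell Ranger 3.1.0 and STAR 2.6 on mm10 per the labels. The file header of SAT D-CAN gave Cell Ranger 3.0.2 and the headers of the other 3 libraries 3.1.0. Cells with 200 genes or more were kept. Scrublet marked 0.175% of control and 0.208% of D-CAN SAT cells, too few for a working call beside 65 and 30 expected doublets, so every cell was retained, including 1 member per SAT library among the highest scores. Cells with genes of 2 subsets may be doublets, which was not tested. UMIs were summed over cells and scaled to CPM. Ratios had 0.5 UMI added and were formed for genes with 20 UMIs or more over both libraries. Ratios at the floor set a count of 0 to 3 and added no UMI. Shares had exact Clopper-Pearson intervals and levels exact Poisson intervals. Clusters used scanpy 1.11.5 at resolution 0.8 on 10 principal components of the 2000 most variable genes. Genes named were those of the lists, the 12 highest and 12 lowest treatment ratios with 50 UMIs or more, and for each subset or cluster the 10 genes, with 30 UMIs or more, whose smaller ratio of both libraries was largest. Cxcl16, Nlrc5 and other list genes shown in detail were chosen after their values were seen. Promoters came from RefSeq on GRCm38.p6. Members and lists were chosen with earlier results of these data known. Alternatives changed the rule limits, depth, filters, weights and cells counted.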

Additional observations from a re-analysis of the deposited data

How the results depend on the processing

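Alternatives were run for the shares of members and of migratory, plasmacytoid, cDC1 and cDC2 cells, and not for the unassigned share. Differences of these shares between the libraries stayed within the interval of the reported value in 55 of 55 alternative values. Those intervals are wide, and signs turned in some: in 1 of 11 for the share of members (-0.186 points when thinned to 2000 UMIs), 5 of 11 for cDC2 and 2 of 11 for plasmacytoid. The control share of members was 1.53% thinned, 0.422% with Cd74 at 20 or more, 1.43% of cells with a Ptprc UMI, and 1.55% with the Cd74-low migratory-gated cells counted. The migratory share was 5.56% in control and 10% in D-CAN when thinned, and in control 42.9% with gates at 1 UMI and 50% with the Cd74-low cells. The cDC2 share was 0% in control when thinned and 0% in D-CAN with Cst3 at 6 or more. Genes past 2-fold numbered 823 at 10 UMIs or more (383 higher, 440 lower), 57 at 50 UMIs or more (32 and 25), 680 in the mean over migratory, cDC1 and cDC2 cells (433 and 247), 45 thinned (22 and 23), and 451 by mean CPM per cell (259 and 192). The mean over migratory, cDC1 and cDC2 cells and the mean CPM per cell were formed for the same 2616 genes as the reported counts. Other UMI limits and thinned cells compare other numbers of genes, which are not given, so those counts cannot be read as shares. Of 360 alternative ratios of named genes, 329 kept their direction and their side of 2-fold, 25 fell short of 2-fold and 6 reversed. Those were Pla2g16 (-1.74, 1 against 4 UMIs), Txndc17 (-0.31, 8 against 9), Ltb (1.13) and Fxyd2 (1.43) when thinned, and Ccr9 (0.0791) and Ifitm3 (0.12) in the mean that leaves out plasmacytoid cells. In the Cd74-low migratory-gated cells the Ccl5 ratio of 1.40 was -0.27 without the 2 D-CAN cells with most Ccl5 and 0.15 without 2 such cells in each library. The cause of other changes was not tested. Alternatives on Cd74-low cells, cells of several gates, unassigned cells and the cells with most Ccl5 were chosen after seeing the data. No paired analysis was possible because each group was 1 library, and no replicate could be left out. With 27 and 28 members, depth and cell number limit all comparisons of shares.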
